A study of Homo sapiens with 54 samples.

Results

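The 8 genes described here encode transporters of amino acids in HepG2 cells, a line from a human liver tumour. They are SLC7A11 (ENSG00000151012), SLC7A5 (ENSG00000103257), SLC3A2 (ENSG00000168003), SLC7A1 (ENSG00000139514), SLC1A5 (ENSG00000105281), SLC1A4 (ENSG00000115902), SLC38A2 (ENSG00000134294) and SLC6A9 (ENSG00000196517). They were taken by these Ensembl IDs, and all 8 were found among the 20056 gene rows of the table. The list was chosen by function with earlier values of these same comparisons in view, namely the log2 differences of compound cultures from DMSO cultures. The changes and calls below therefore describe the 8 genes and are no independent test of them, and no p-value is given for SLC7A11 in those comparisons, since the list was built around it.

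The study exposed HepG2 cultures for 24 or 48 h to one of 7 compounds, each at a single dose, and measured RNA on 54 single-channel arrays. The compounds were nifedipine (420 µM), piperonyl butoxide (45 µM), methapyrilene hydrochloride (114 µM), 2-nitrofluorene (35 µM), tolbutamide (2.1 mM), clonidine (95 µM) and the tobacco-specific nitrosamine NNK (10 mM), with 3 replicates per compound and time. They were set against 6 arrays per time of cultures given the solvent, 0.5 percent DMSO, in 2 parallel exposures. The series asks how carcinogens that do or do not damage DNA, and non-carcinogens, differ in the expression they induce. The doses differ between compounds, so differences between compounds are differences between these exposures. HepG2 is a single tumour-derived line, and its labelled identity was not checked against liver markers here, because the row IDs could not be paired with gene symbols.

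The SLC7 family holds cationic amino acid carriers such as SLC7A1 and light chains such as SLC7A11 and SLC7A5, which reach the plasma membrane when joined by a disulfide bond to the heavy chain SLC3A2. SLC7A11, also called xCT, brings in cystine and lets out glutamate, and the cysteine made from cystine limits the synthesis of glutathione in many cells, hepatoma cells included. Many amino acid transporter genes are targets of the transcription factor ATF4, which is translated when amino acids are scarce or the endoplasmic reticulum is under stress, and SLC7A11 is also a known target of the oxidative-stress factor NRF2.

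Values are log2 expression values as deposited, between 2.45 and 14.8 over the table, with array medians from 5.70 to 6.21. The number of arrays limits the precision. In 4 of the 54 arrays the values were compressed, with a slope on the mean of all arrays under 0.95: 0.678 in the first 48 h array of piperonyl butoxide, 0.858 in its 24 h array of number 2, 0.798 in the NNK array of number 2 at 24 h and 0.911 in the array of that number of the second DMSO exposure at 24 h. Compression lowers genes of high level and raises genes of low level, and the other arrays had slopes from 0.965 to 1.04. These arrays are called low-spread arrays below, and calls that changed when they were left out are given with and without them. The normalization hides changes in total RNA, and in these bulk cultures fewer cells of a kind and less RNA per cell cannot be told apart.

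SLC7A11 was higher than DMSO at 24 h with 6 of the 7 compounds, with no overlap between the arrays. With nifedipine its log2 values were 10.49, 10.49 and 9.96, and with piperonyl butoxide they were 10.00, 9.45 and 9.80, against 6.71, 7.53, 7.22, 7.45, 6.75 and 6.76 in the 6 DMSO arrays. Methapyrilene arrays held 9.69, 9.91 and 9.27, 2-nitrofluorene arrays 9.08, 9.62 and 8.69, and tolbutamide arrays 8.94, 9.12 and 8.23. Every one of these 15 arrays lay above the highest DMSO array. Clonidine cultures, at 8.21, 8.18 and 7.61, also lay above DMSO but by less. NNK cultures, at 7.5, 6.94 and 7.20, overlapped DMSO.

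As differences from DMSO in the fit of all arrays, the 24 h log2 changes of SLC7A11 were 3.25 for nifedipine, 2.68 for piperonyl butoxide, 2.56 for methapyrilene, 2.06 for 2-nitrofluorene, 1.69 for tolbutamide, 0.93 for clonidine and 0.14 for NNK, with a standard error of 0.30 for each. Without the low-spread arrays it was 2.86 for piperonyl butoxide and 0.31 for NNK (SE 0.22). In folds, these were 9.48 for nifedipine, 6.41 for piperonyl butoxide, 5.88 for methapyrilene, 4.17 for 2-nitrofluorene, 3.23 for tolbutamide, 1.91 for clonidine and 1.11 for NNK. Its change was the highest of all 20056 genes with nifedipine and with methapyrilene, 5th with 2-nitrofluorene and with tolbutamide, 13th with clonidine and 33rd with piperonyl butoxide. Ordered by mean level at 24 h, nifedipine (10.31 ± 0.30), piperonyl butoxide (9.75 ± 0.28), methapyrilene (9.62 ± 0.32), 2-nitrofluorene (9.13 ± 0.47) and tolbutamide (8.76 ± 0.47) overlapped each with the next, whereas tolbutamide lay wholly above clonidine (8.0 ± 0.34) and clonidine wholly above NNK (7.21 ± 0.28), which overlapped DMSO (7.07 ± 0.38; SD, n = 3 per compound and 6 for DMSO).

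**Figure D1:**
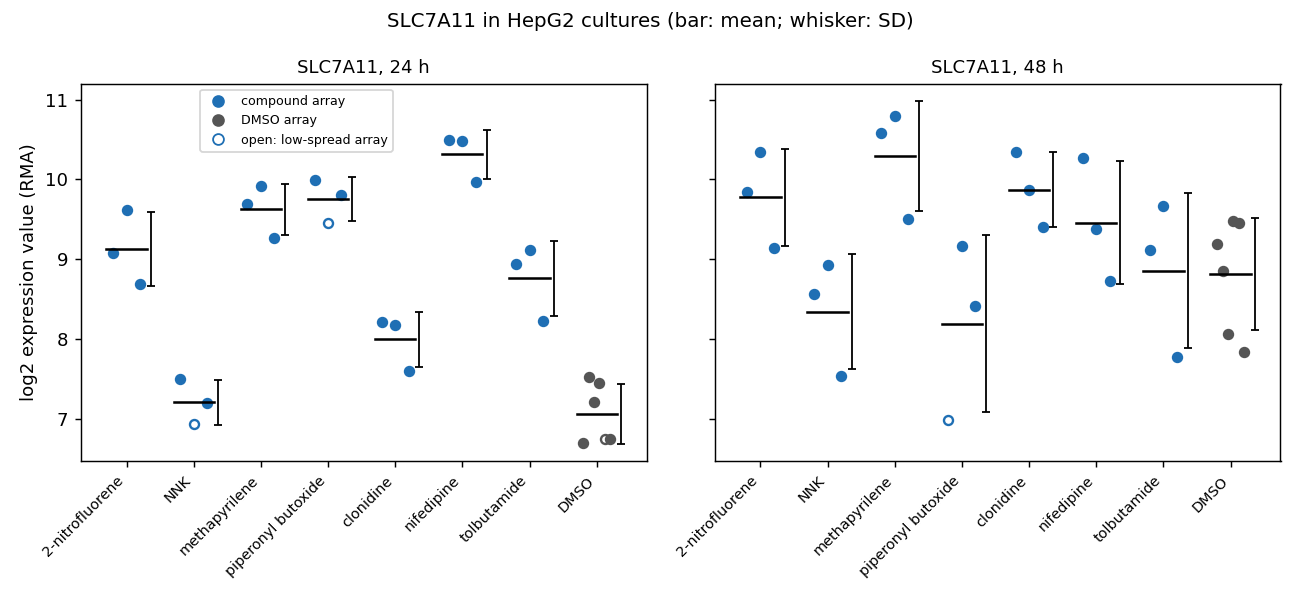
SLC7A11 log2 expression value (vertical axis) in each array at 24 h (left) and 48 h (right), by compound with DMSO at the right of each panel; horizontal bars are means, whiskers are SD over 3 arrays per compound and 6 for DMSO, and open points are the low-spread arrays. At 24 h the nifedipine arrays sit between 9.96 and 10.49 and the DMSO arrays between 6.71 and 7.53, while at 48 h the DMSO arrays reach 9.48.

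At 48 h SLC7A11 lay wholly above DMSO only in methapyrilene cultures among the 7 compounds. Methapyrilene arrays held 10.59, 10.79 and 9.51, against 9.19, 8.85, 8.07, 9.48, 9.45 and 7.85 in DMSO arrays, a log2 change of 1.48 (SE 0.30) or 2.79-fold. Clonidine arrays (10.34, 9.87 and 9.40) and 2-nitrofluorene arrays (9.85, 10.34 and 9.14) were higher in 3 of 3 replicates than their matched DMSO arrays but overlapped the DMSO range, with log2 changes of 1.06 and 0.96 (SE 0.30). Nifedipine arrays, at 10.27, 9.38 and 8.73, were also higher than their matched DMSO arrays in 3 of 3 replicates and overlapped the DMSO range, with a change of 0.64. Tolbutamide arrays held 9.12, 9.67 and 7.78, with a change of 0.04, and NNK arrays 8.57, 8.93 and 7.54, with a change of -0.47. Replicate 3 was the lowest array of SLC7A11 in 6 of the 7 compounds at 48 h, and the third array was also the lowest of its DMSO exposure in both exposures. In piperonyl butoxide cultures the 48 h values were 6.99, 9.17 and 8.42, and the lowest of them is a low-spread array. The change there was -0.62 with all arrays and 0.18 (SE 0.21) without the low-spread arrays.

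The DMSO cultures themselves moved between the times. SLC7A11 averaged 8.82 ± 0.71 at 48 h and 7.07 ± 0.38 at 24 h (SD, n = 6 each), a log2 difference of 1.75 (SE 0.34) after the 2 exposures of a number were averaged. That difference did not pass the adjustment over all genes in limma (adjusted p = 0.231, with 5 of 20056 genes, 0.0249 percent, called and 1030 under an unadjusted p of 0.05), nor without the low-spread arrays (1.62, adjusted p = 0.141). SLC3A2, SLC1A4, SLC1A5, SLC7A5 and SLC7A1 were higher in DMSO at 48 h by 0.52, 0.47, 0.45, 0.39 and 0.36 on the log2 scale, and none of these passed (lowest adjusted p = 0.248 for SLC3A2). SLC38A2 differed by 0.11 and SLC6A9 by -0.05, and neither passed.

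Taking the 48 h change minus the 24 h change, SLC7A11 had the lowest value of all 20056 genes for piperonyl butoxide, -3.30 (SE 0.43), and for nifedipine, -2.60 (SE 0.43). Without the low-spread arrays these were -2.68 (SE 0.31) for piperonyl butoxide and -2.48 for nifedipine. For the other compounds they were -1.65 for tolbutamide, -1.10 for 2-nitrofluorene, -1.08 for methapyrilene, -0.62 for NNK and 0.13 for clonidine, all with a standard error of 0.43. All 7 differences share the DMSO arrays of both times.

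SLC3A2, the heavy chain that carries SLC7A11, SLC7A5 and other light chains to the membrane, was high in piperonyl butoxide cultures at both times. At 24 h its log2 values were 11.71, 11.65 and 11.52 with piperonyl butoxide, against 9.34, 9.30, 9.24, 9.23, 9.14 and 9.08 in DMSO arrays. At 48 h they were 11.59, 12.25 and 12.32 with piperonyl butoxide, against 9.95, 9.90, 10.08, 9.86, 9.40 and 9.28 in DMSO arrays. The groups were far apart at both times, and of the low-spread arrays the one at 24 h (11.65) lay between the other 2 piperonyl butoxide arrays and the one at 48 h (11.59) below them. The changes were 2.41 at 24 h (SE 0.17, 5.30-fold, adjusted p = 2.9e-14 in limma) and 2.31 at 48 h (SE 0.17, 4.95-fold, adjusted p = 4.0e-14), with 2.39 and 2.60 without the low-spread arrays. The difference between times was -0.10 (95% interval -0.58 to 0.38, adjusted p = 0.848 in limma), while that of SLC7A11 in the same cultures was -3.30.

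In limma's comparisons of piperonyl butoxide with each of the other 6 compounds, SLC3A2 was higher with piperonyl butoxide in all 6 at both times. The smallest ratio at 24 h was 3.18-fold over nifedipine (adjusted p = 2.2e-08) and the highest 5.78-fold over NNK (adjusted p = 6.9e-13). At 48 h the ratios ran between 2.34-fold over methapyrilene (adjusted p = 3.3e-06) and 5.46-fold over tolbutamide (adjusted p = 7.0e-13). For SLC7A11 at 24 h, piperonyl butoxide minus nifedipine was -0.56 (95% interval -1.27 to 0.14). This is description only, since the list was built around that gene.

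Other compounds moved SLC3A2 by less. At 24 h it was higher with nifedipine (9.97, 9.90 and 9.99), methapyrilene (10.02, 9.80 and 9.78) and tolbutamide (9.82, 9.98 and 9.75), and all 9 arrays lay above the 6 DMSO arrays. In limma it rose by 0.74 with nifedipine (adjusted p = 0.0029), 0.64 with methapyrilene (adjusted p = 0.034) and 0.63 with tolbutamide (adjusted p = 0.034), each with a standard error of 0.17. With 2-nitrofluorene the change was 0.44 and the arrays (9.74, 9.62 and 9.63) also lay above DMSO, but the adjusted p was 0.856. The methapyrilene call was lost on leaving out any of 7 of the 9 arrays in that comparison, with values between 0.58 and 0.68, and the tolbutamide call on leaving out any of 6 of 9, with values between 0.56 and 0.67. Neither was called without the replicate block, the term for the replicate number in the fit (adjusted p = 0.067 for methapyrilene and 0.065 for tolbutamide), nor with a single DMSO exposure.

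At 48 h SLC3A2 rose with methapyrilene (10.93, 11.12 and 10.43), clonidine (10.70, 10.71 and 10.34) and nifedipine (10.35, 10.28 and 10.60), again with every compound array above the highest DMSO array. The changes were 1.08 with methapyrilene (adjusted p = 1.9e-05 in limma), 0.84 with clonidine (adjusted p = 0.0080) and 0.67 with nifedipine (adjusted p = 0.0087). The clonidine call was lost on leaving out any 1 of the 3 clonidine arrays (0.80 to 0.88), and the nifedipine call without nifedipine replicate 3 (0.47). Both were also lost with the first DMSO exposure alone, where the change was 0.61 for clonidine (adjusted p = 0.216) and 0.43 for nifedipine (adjusted p = 0.304), and in fits of 1 compound and DMSO (adjusted p = 0.135 for clonidine and 0.061 for nifedipine). Tolbutamide cultures (9.81, 9.94 and 9.06) overlapped DMSO at 48 h, with a change of -0.14.

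SLC7A5 is the light chain that exchanges large neutral amino acids such as leucine. With all arrays, none of its 7 changes at 24 h was called in limma, and they ran between -0.27 with NNK and 0.43 with nifedipine. The nifedipine change was called without the low-spread arrays (0.35, adjusted p = 0.042) and after cyclic loess, another scaling of the arrays (0.40, adjusted p = 0.025). The piperonyl butoxide change at 24 h, 0.18 with all arrays (adjusted p = 0.449), was called after cyclic loess (0.42, adjusted p = 0.0070) but not without the low-spread arrays (0.22, adjusted p = 0.235). In piperonyl butoxide cultures it held 10.87, 10.27 and 10.68 at 24 h, against a DMSO median of 10.52 at 24 h with a range of 9.93 to 10.63. At 48 h it held 9.11, 10.21 and 10.31 with piperonyl butoxide, against 10.75, 10.71, 10.90, 10.85, 10.82 and 10.87 in DMSO arrays, with every piperonyl butoxide array below every DMSO array. It fell by 0.94 on the log2 scale at 48 h (SE 0.17, adjusted p = 1.8e-05 in limma), a comparison in which 20.6 percent of all genes fell. The lowest array is a low-spread array, and without the low-spread arrays SLC7A5 still fell, with a change of -0.54 (SE 0.13, adjusted p = 0.0015). The 48 h change minus the 24 h change was -1.11 (adjusted p = 0.0105 in limma), and -0.75 without the low-spread arrays (adjusted p = 0.029). Leaving out the low-spread 48 h array alone gave -0.71, which was not called, and the difference of -1.11 was not called in a fit of piperonyl butoxide and DMSO alone (adjusted p = 0.262).

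**Figure D2:**
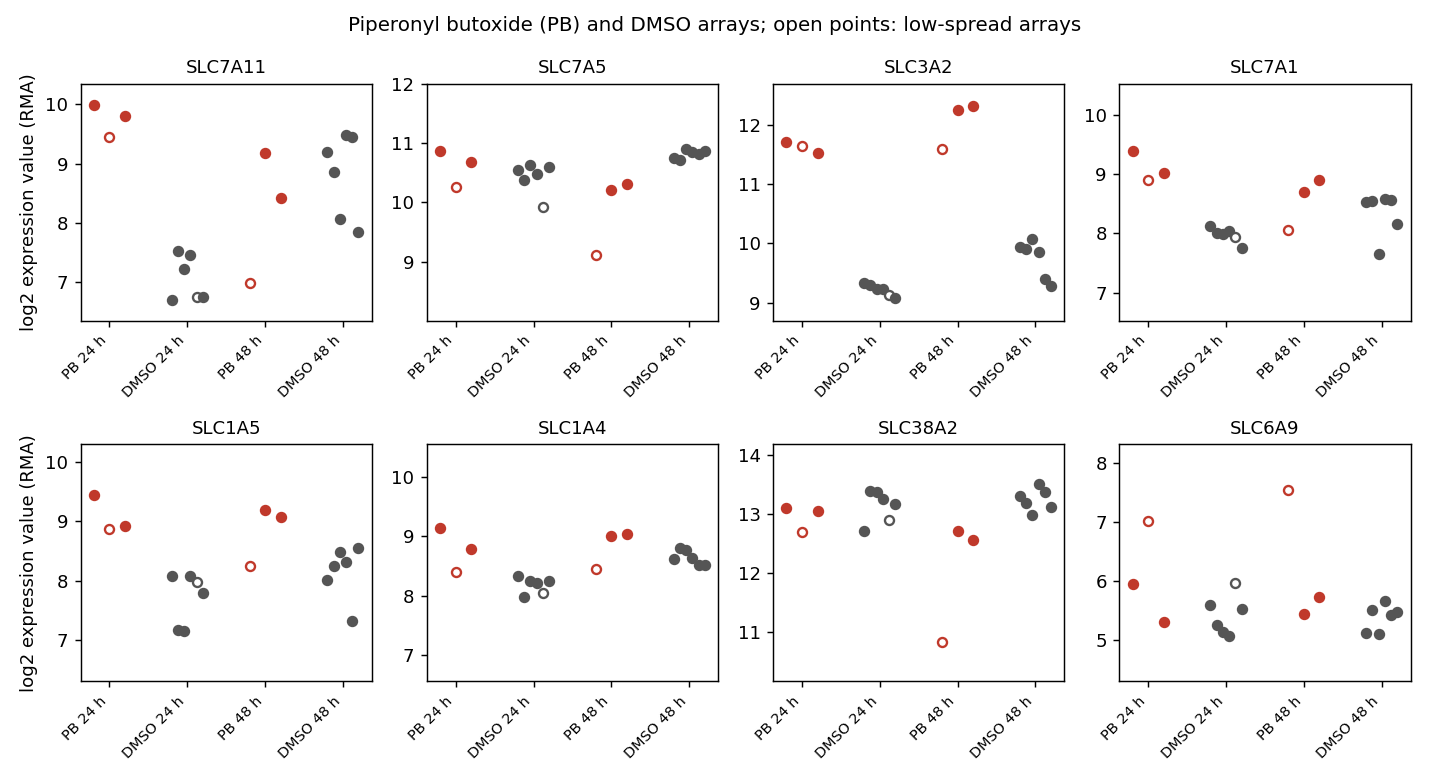
Log2 expression value (vertical axis) of the 8 genes in piperonyl butoxide (PB, red) and DMSO (grey) arrays at 24 and 48 h, 1 panel per gene and 1 point per array, with low-spread arrays as open points; each panel has its own vertical range. SLC3A2 is at 11.52 to 11.71 with piperonyl butoxide at 24 h and 11.59 to 12.32 at 48 h, while in the low-spread 48 h array SLC38A2 is at 10.84 and SLC6A9 at 7.54, apart from the other 2 arrays of that group.

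SLC7A1, the carrier of arginine, lysine and other cationic amino acids, rose at 24 h with 4 compounds in limma. Piperonyl butoxide arrays held 9.39, 8.91 and 9.02, nifedipine arrays 8.72, 8.65 and 8.91, methapyrilene arrays 8.98, 8.53 and 8.58 and tolbutamide arrays 8.84, 8.62 and 8.31, against 8.12, 8.0, 7.99, 8.03, 7.93 and 7.76 in DMSO arrays. All 12 compound arrays lay above the highest DMSO array. The changes were 1.14 with piperonyl butoxide (adjusted p = 5.5e-07), 0.79 with nifedipine (adjusted p = 0.00090), 0.73 with methapyrilene (adjusted p = 0.0087) and 0.62 with tolbutamide (adjusted p = 0.030), each with SE 0.16. The tolbutamide call was lost on leaving out any of 5 of its 9 arrays (values between 0.55 and 0.74 over all 9), and the methapyrilene call without methapyrilene replicate 1 (0.66). Without the replicate block neither was called (adjusted p = 0.117 for methapyrilene and 0.221 for tolbutamide), and with the first DMSO exposure alone neither was either (0.143 and 0.282).

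At 48 h SLC7A1 rose with methapyrilene (9.38, 9.49 and 8.88), against 8.54, 8.54, 7.66, 8.57, 8.55 and 8.16 in DMSO arrays, by 0.91 (SE 0.16, adjusted p = 0.00018 in limma). With nifedipine (9.21, 8.87 and 8.53) it rose by 0.53 (adjusted p = 0.041), a call lost on leaving out any of 6 of its 9 arrays (0.42 to 0.64), without the replicate block (adjusted p = 0.219) and with either DMSO exposure alone. Clonidine arrays held 9.22, 9.08 and 8.47, with a change of 0.59 that was not called with all arrays (adjusted p = 0.126) and was called without the low-spread arrays (0.59, adjusted p = 0.0067) and after cyclic loess (0.62, adjusted p = 0.0061). Piperonyl butoxide arrays at 48 h held 8.05, 8.69 and 8.89, with a change of 0.21 (adjusted p = 0.258) with all arrays and 0.57 (adjusted p = 0.0020 in limma) without the low-spread arrays. The 48 h change minus the 24 h change with piperonyl butoxide was -0.93 (adjusted p = 0.034 in limma), and -0.65 without the low-spread arrays, where the adjusted p was 0.107. It was not called without the replicate block either (adjusted p = 0.224). Leaving out single arrays ended that call in 9 of 18 cases, with values between -1.31 and -0.57.

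SLC1A5 and SLC1A4 are sodium-dependent exchangers of neutral amino acids, SLC1A5 best known for glutamine and SLC1A4 for alanine, serine and cysteine. SLC1A5 held 9.45, 8.87 and 8.91 with piperonyl butoxide at 24 h and 8.54, 8.45 and 8.42 with nifedipine, against 8.07, 7.17, 7.15, 8.08, 7.97 and 7.78 in DMSO arrays. Both compounds lay wholly above DMSO, although the DMSO arrays themselves spread over almost 1 log2 unit. The changes were 1.37 with piperonyl butoxide (SE 0.20, 2.59-fold, adjusted p = 1.0e-06 in limma) and 0.76 with nifedipine (adjusted p = 0.0116). The nifedipine call was lost without nifedipine replicate 2 (0.67) or replicate 3 (0.66), without the replicate block (adjusted p = 0.087), in a fit of nifedipine and DMSO alone (adjusted p = 0.115) and with the second DMSO exposure alone (0.52, adjusted p = 0.219). Tolbutamide arrays held 8.94, 8.10 and 8.05 and methapyrilene arrays 8.69, 7.94 and 8.02. SLC1A5 was called for neither with all arrays and for both once the low-spread arrays were left out, with changes of 0.75 for tolbutamide (adjusted p = 0.0063) and 0.61 for methapyrilene (adjusted p = 0.047).

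SLC1A5 rose at 48 h with piperonyl butoxide alone among the 7 compounds in limma, by 0.68 with all arrays (8.24, 9.19 and 9.07 with piperonyl butoxide, against 8.01, 8.24, 8.48, 8.32, 7.32 and 8.54 in DMSO arrays, adjusted p = 0.0055). The low-spread array was the one that overlapped DMSO, and without the low-spread arrays the change was 1.03 (adjusted p = 7.8e-05) and nifedipine was called too, with a change of 0.59. Without piperonyl butoxide replicate 2 the change was 0.38 and not called, and in a fit of piperonyl butoxide and DMSO alone the 0.68 was not called (adjusted p = 0.108). With all arrays, 38.1 percent of all genes rose with piperonyl butoxide at 48 h.

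SLC1A4 changed evenly, by 0.74 with nifedipine, 0.69 with methapyrilene, 0.66 with tolbutamide and 0.60 with piperonyl butoxide at 24 h (SE 0.15), and all 4 rises were called in limma (adjusted p between 0.00077 for nifedipine and 0.0093 for tolbutamide). Its values were 8.83, 8.80 and 9.12 with nifedipine and 9.13, 8.57 and 8.90 with methapyrilene, against 8.32, 7.97, 8.24, 8.22, 8.04 and 8.25 in DMSO arrays. At 48 h it rose by 0.75 with methapyrilene (9.32, 9.80 and 9.06, adjusted p = 0.00091) and by 0.63 with nifedipine (9.26, 9.18 and 9.39, adjusted p = 0.0056), against 8.61, 8.81, 8.78, 8.64, 8.52 and 8.51 in DMSO arrays. Piperonyl butoxide arrays at 48 h held 8.45, 9.01 and 9.04, the lowest being the low-spread array. The change there was 0.18 and not called with all arrays, 0.39 and called without the low-spread arrays (adjusted p = 0.042), and 0.55 and called after cyclic loess (adjusted p = 0.00041). Single arrays decided some of the other calls. Methapyrilene at 24 h lost its call without methapyrilene replicate 1 (0.63) or 3 (0.69), tolbutamide at 24 h without tolbutamide replicate 2 (0.53), and nifedipine at 48 h without nifedipine replicate 3 (0.49). Tolbutamide at 24 h was also not called without the replicate block (adjusted p = 0.055), both 24 h calls were lost with either DMSO exposure alone, and nifedipine at 48 h with the first exposure alone (0.54, adjusted p = 0.122).

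**Figure D3:**
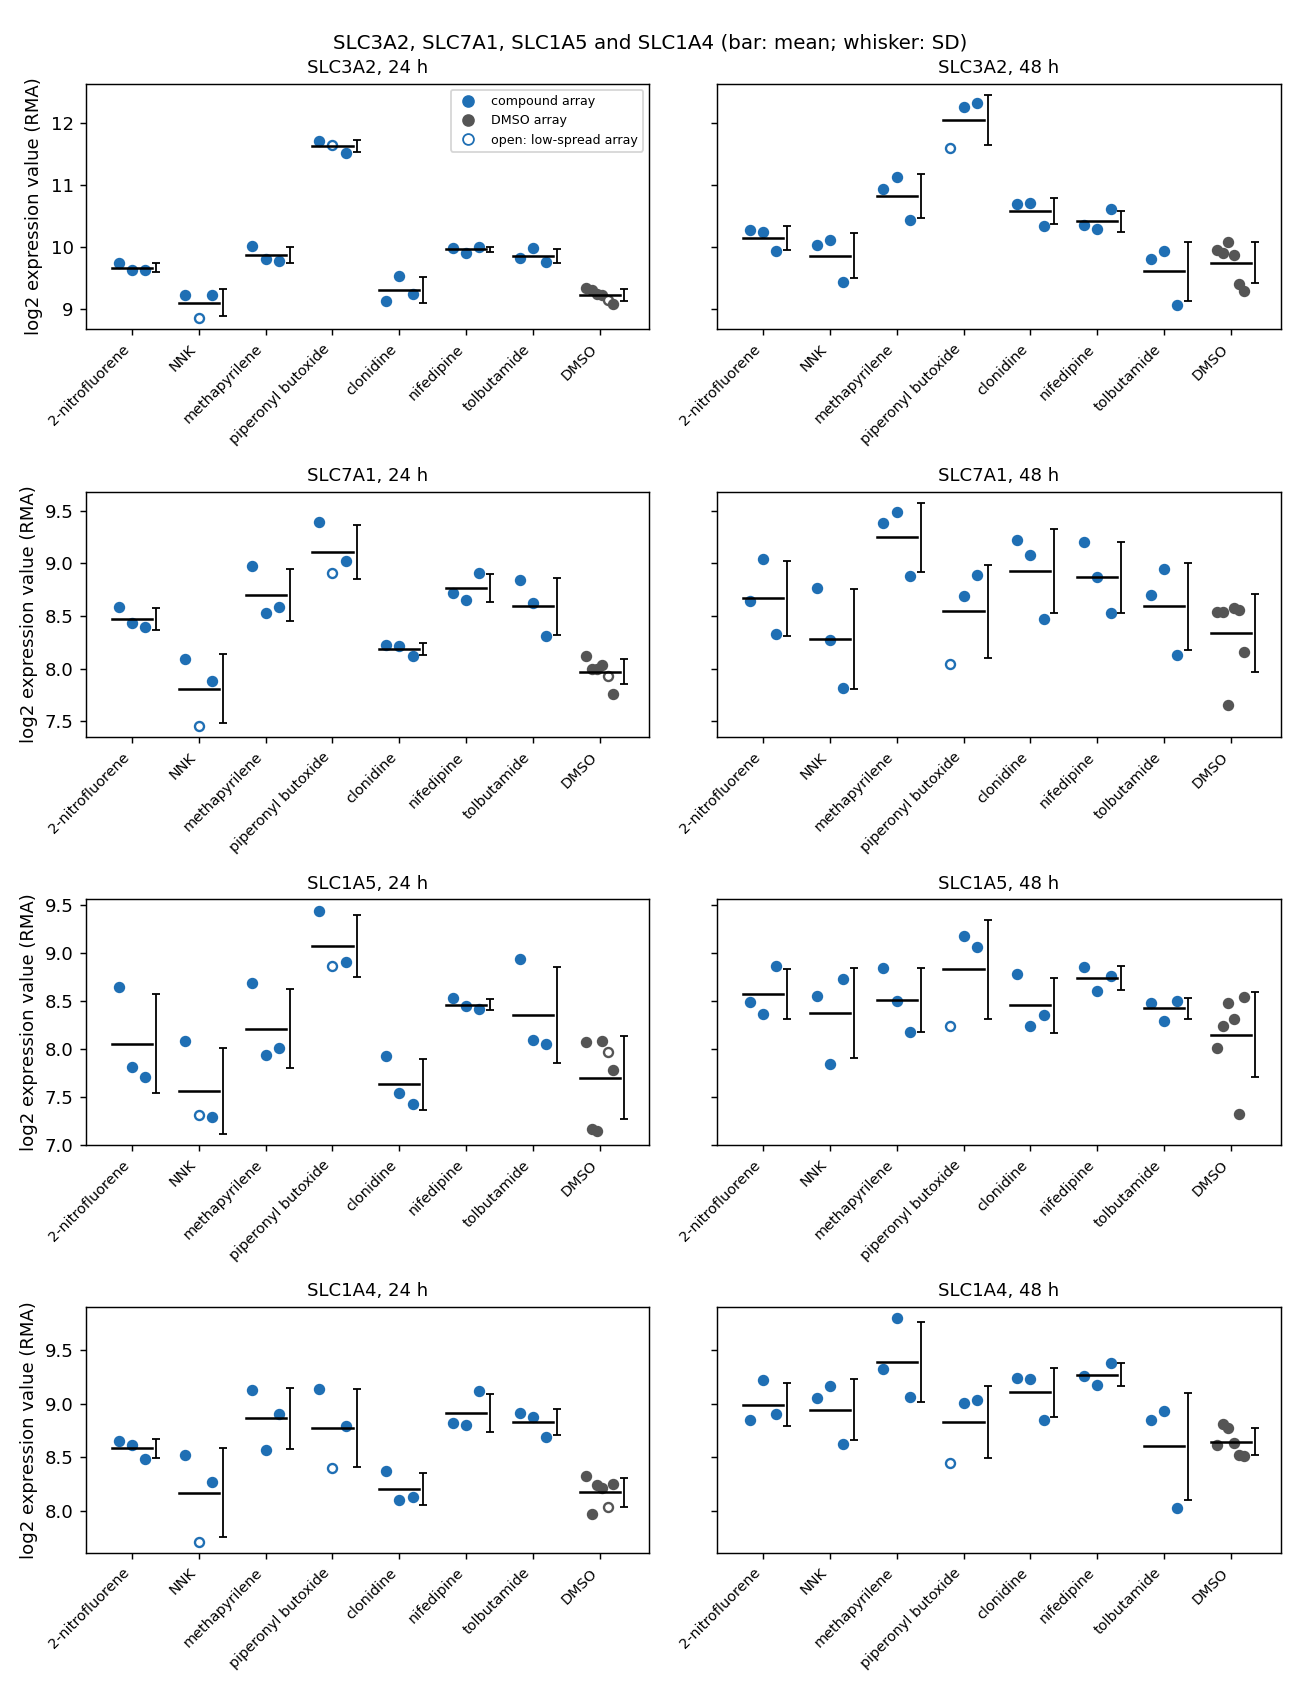
Log2 expression value (vertical axis) of SLC3A2, SLC7A1, SLC1A5 and SLC1A4 in each array at 24 h (left) and 48 h (right), by compound with DMSO at the right of each panel; bars are means, whiskers SD over 3 arrays per compound and 6 for DMSO, and open points low-spread arrays. SLC3A2 stands apart with piperonyl butoxide at both times (11.52 to 11.71 at 24 h, 11.59 to 12.32 at 48 h), while the SLC1A4 arrays of nifedipine at 24 h (8.80 to 9.12) lie above the DMSO arrays (7.97 to 8.32).

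SLC38A2, a sodium-coupled carrier of small neutral amino acids, had log2 values of 12.47 or more in all arrays outside the piperonyl butoxide group at 48 h, and none of its 7 changes at 24 h was called in limma (-0.19 to 0.34). In piperonyl butoxide cultures at 48 h it held 10.84, 12.72 and 12.56, against 13.30, 13.19, 12.98, 13.50, 13.38 and 13.11 in DMSO arrays. It fell by 1.21 on the log2 scale (SE 0.22, adjusted p = 2.3e-05 in limma), and the low-spread array made up much of that size: without the low-spread arrays the change was -0.55 (SE 0.11, adjusted p = 0.00013). The 2 remaining arrays still lay below every DMSO array. With all arrays, 20.6 percent of all genes fell in that comparison.

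SLC6A9, the glycine carrier GlyT1, had log2 values between 4.97 and 6.03 in all arrays but 3, near the array medians, and those 3, at 7.54, 7.01 and 6.70, are the piperonyl butoxide 48 h, piperonyl butoxide 24 h and NNK 24 h low-spread arrays. Its change with piperonyl butoxide at 48 h was 0.86 (7.54, 5.44 and 5.73 with piperonyl butoxide, against 5.12, 5.50, 5.10, 5.66, 5.42 and 5.47 in DMSO arrays, adjusted p = 0.0085 in limma). Without the low-spread arrays the change was 0.26 and the adjusted p 0.294. With all arrays, no other change of SLC6A9 against DMSO was called.

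Counted over the 8 genes and 7 compounds, 19 of 56 changes at 24 h rose and 0 fell, and 11 of 56 at 48 h rose and 2 fell, by limma with an adjusted p under 0.05 over all genes. SLC7A11, which the list was built around, made up 5 of the 19 rises at 24 h and 1 of the 11 at 48 h. Without the 4 low-spread arrays, 22 rose and 0 fell at 24 h, while 17 rose and 2 fell at 48 h. In limma, more of all genes then had an unadjusted p under 0.05, except with NNK at 24 h and piperonyl butoxide at 48 h. With nifedipine at 48 h 5141 had one, against 2989 with all arrays, and with piperonyl butoxide at 48 h 9190 against 12884. The rise from 11 to 17 is therefore not shown to be particular to the 8 genes. At 24 h, 5 of the 8 genes rose with piperonyl butoxide, where 10.9 percent of all genes rose and 15.1 percent fell, and 5 with nifedipine (3.53 percent rose, 4.65 percent fell). With methapyrilene 4 rose (0.623 percent of all genes rose, 0.907 percent fell), with tolbutamide 4 (0.858 percent rose, 1.16 percent fell) and with 2-nitrofluorene 1 (0.274 percent rose, 0.0499 percent fell). With clonidine 0 of 8 rose (0.00499 percent of all genes rose, 0 percent fell). In limma 1 of the 8 had an unadjusted p under 0.05, and 438 of all 20056 genes had one. With NNK 0 of 8 rose (0 percent rose, 0 percent fell). There 0 of the 8 had an unadjusted p under 0.05, and 1431 of all genes had one.

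At 48 h, 4 genes rose with methapyrilene (2.36 percent of all genes rose, 2.64 percent fell), 3 with nifedipine (2.45 percent rose, 3.34 percent fell) and 1 with clonidine (0.269 percent rose, 0.115 percent fell). The clonidine count was 3 without the low-spread arrays and 4 after cyclic loess. The share of all genes called is not given for these settings, and the 0.269 percent belongs to the fit of all arrays. These counts are therefore not to be set against it. Without the low-spread arrays 2461 of all genes had an unadjusted p under 0.05 in limma with clonidine, against 1189 with all arrays. With piperonyl butoxide 3 rose (38.1 percent of all genes) and 2 fell (20.6 percent). These counts of 8 are near the shares of all genes, so they are not shown to be particular to the 8 genes. With 2-nitrofluorene 0 rose or fell (0.299 percent of all genes rose, 0.0698 percent fell). In limma 5 of the 8 had an unadjusted p under 0.05 there, and 741 of all 20056 genes had one. With NNK (0 percent rose, 0 percent fell) and tolbutamide (0.598 percent rose, 1.6 percent fell) 0 were called and 0 had an unadjusted p under 0.05. Of all genes, 293 had one with NNK and 1747 with tolbutamide. Of the 48 h minus 24 h differences, 3 fell with piperonyl butoxide (0.603 percent of all genes fell, 0.464 percent rose) and 1 with nifedipine (0.0199 percent fell, 0.0199 percent rose). With the other compounds 0 of 8 were called: methapyrilene (0.015 percent of all genes fell, 0.0748 percent rose), clonidine (0 percent fell, 0.00499 percent rose), tolbutamide (0.0299 percent fell, 0 percent rose), 2-nitrofluorene and NNK (0 percent either way). Of the 8, 3 had an unadjusted p under 0.05 with tolbutamide, 1 each with methapyrilene, clonidine and 2-nitrofluorene, and 0 with NNK. Of all genes, 368 had one with tolbutamide, 779 with methapyrilene, 320 with clonidine, 141 with 2-nitrofluorene and 603 with NNK. As the list was drawn up with these comparisons in view, the counts are set beside the shares of all genes as a description.

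The median log2 change of the 8 genes at 24 h was 0.90 with piperonyl butoxide, where that of all genes was 0.10, 0.74 with nifedipine (all genes -0.06), 0.62 with tolbutamide (-0.01), 0.58 with methapyrilene (-0.03), 0.40 with 2-nitrofluorene (-0.02), 0.07 with clonidine (-0.03) and -0.13 with NNK (0.04). At 48 h it was 0.56 with nifedipine (all genes 0.03), 0.55 with methapyrilene (-0.04), 0.38 with clonidine (-0.01), 0.34 with 2-nitrofluorene (-0.01), 0.20 with piperonyl butoxide (0.21), 0.15 with tolbutamide (-0.02) and 0.03 with NNK (0.02). With piperonyl butoxide at 48 h the median of the 8 was therefore no higher than that of all genes. The median of all genes there fell to 0.07 without the low-spread arrays, where that of the 8 genes was 0.33.

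**Figure D4:**
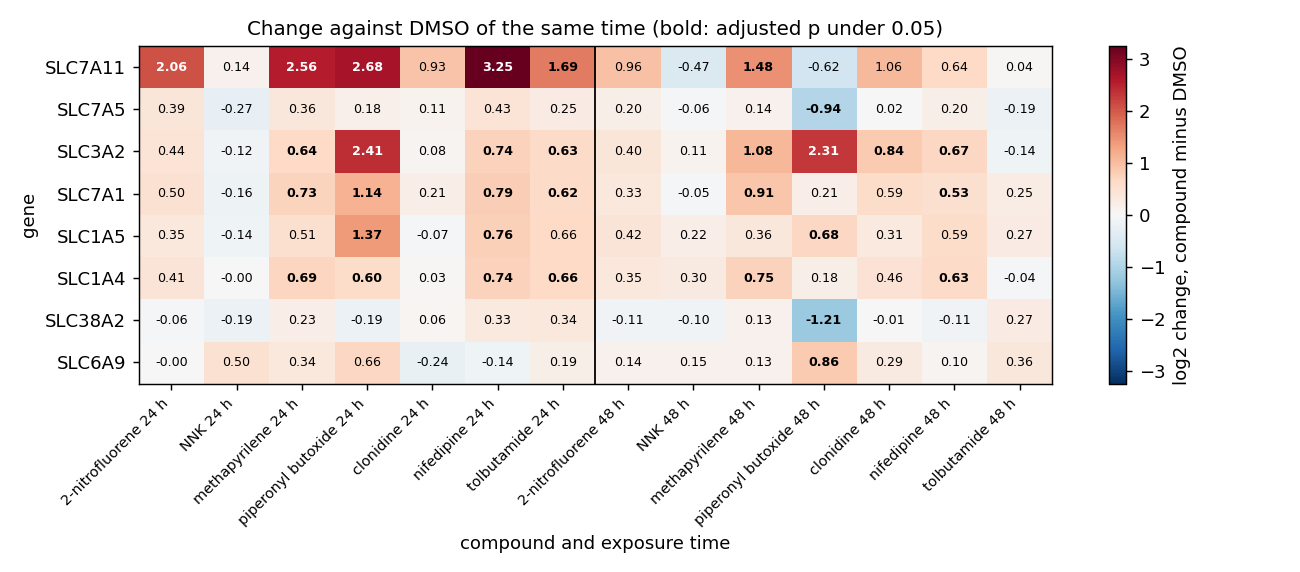
Log2 change against DMSO of the same time (colour and printed number) for the 8 genes (rows) and the 7 compounds at 24 h and 48 h (columns, with a line between the times); bold marks an adjusted p under 0.05 in the fit of all 20056 genes, with all arrays kept. The SLC7A11 row holds the highest values at 24 h, up to 3.25 with nifedipine, and the SLC3A2 row stays high with piperonyl butoxide at both times (2.41 and 2.31). Bold in the SLC7A11 row is description only, since the list was built around that gene.

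Among the other 7 genes, differences from matched DMSO ran most like those of SLC7A11 for SLC7A1 (Pearson r = 0.77 over the 42 compound arrays) and SLC7A5 (0.75), followed by SLC1A4 (0.63), SLC38A2 (0.58), SLC1A5 (0.44), SLC3A2 (0.24) and SLC6A9 (-0.35). Without the low-spread arrays, leaving 39, these were 0.71 for SLC7A1, 0.67 for SLC7A5, 0.58 for SLC1A4 and 0.44 for SLC38A2. They were 0.38 for SLC1A5, 0.31 for SLC3A2 and -0.13 for SLC6A9. Over all genes the IDs with the highest values were ENSG00000111371 (0.88) and ENSG00000070669 (0.86), and SLC7A1 ranked 19th. The arrays of a number share their DMSO arrays, so these correlations carry no test.

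Promoter sequence was looked at because several of the 8 genes rose together at 24 h. RefSeq windows (GRCh38.p14, 250 bases before to 50 after a start) were at hand for 7 of the 8 genes, 12 windows in all. SLC7A11 had no window, so its promoter was not searched. They were searched on both strands for the core of the C/EBP-ATF response element, TGATGNAA, the kind of site that ATF4 binds, where N is any base. The core was in 1 of 3 windows of SLC3A2, 1 of 3 of SLC1A5, 1 of 2 of SLC1A4 and the 1 window of SLC7A1, and it was not in the single windows of SLC7A5, SLC38A2 and SLC6A9. Genes with more windows had more chances of a match, so the genes are not compared with each other by it. The core was found in 3.62 percent of 35116 windows and in at least 1 window of 4.46 percent of 27305 genes. The 30 bases around each match are shown 5′ to 3′ on the strand of the gene, with the core in capitals. The capitals of SLC3A2 and SLC1A4 are its reverse complement.
SLC3A2 (chr11:62881719-62881748, + strand): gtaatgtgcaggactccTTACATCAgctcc
SLC7A1 (chr13:29595663-29595692, - strand): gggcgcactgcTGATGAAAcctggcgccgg
SLC1A5 (chr19:46784893-46784922, - strand): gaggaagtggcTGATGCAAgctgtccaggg
SLC1A4 (chr2:64989381-64989410, + strand): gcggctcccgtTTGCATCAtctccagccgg

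The matches begin 38 bases after the start in SLC3A2, 8 bases after it in SLC7A1, 97 bases before it in SLC1A5 and 7 bases before it in SLC1A4. SLC3A2, SLC1A5 and SLC1A4 have several annotated starts, and the match is at 1 of them in each. In none of these genes is it the outermost start, whose window holds no match. The core of the antioxidant response element, TGACNNNGC, which NRF2 recognises, was found in a window of SLC7A5, SLC3A2, SLC7A1 and SLC1A5. In SLC3A2 and SLC1A5 this was not the window of the outermost start, and in SLC1A5 not the window with the other core. It is common, in 13.3 percent of windows and at least 1 window of 16.1 percent of genes. A match says only that these letters stand in the window.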

How the data were processed

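Values were the authors' log2 expression values for 54 HepG2 arrays, deposited in 1 table and made with RMA per the submitters' processing notes. Its version is not given in the sources used here, nor is the probe definition. No row was filtered out. The 54 arrays were fitted together by limma 3.58.1 under R 4.3.3, using lmFit with eBayes, with 16 groups, a block for the replicate number of each time and 34 residual degrees of freedom. A label of each compound array lists 2 DMSO arrays of its time and number as its controls, which is where the pairing comes from. Deviations of arrays of 1 number had a mean correlation of 0.242 at 24 h and 0.205 at 48 h, and 76 and 73 of 105 such pairs were above 0.1. For pairs of different number the means were -0.111 and -0.101, with 53 and 40 of 210 above 0.1. Arrays of 1 number were more alike on average but not in every pair, so the deviations alone do not settle it. Two-sided p-values were adjusted by Benjamini-Hochberg over the 20056 genes of a contrast. Labels call replicates biological but name no separate cultures' origin, so p-values measure the spread between these arrays. DMSO at 48 h was compared with 24 h without a block. The reference table paired 0 of the 20056 IDs with a symbol, so the 56 listed genes and the cell type markers were not run. The 8 genes and the lists were chosen with earlier results of these data known. All 8 genes are named in every comparison, and at most 2 IDs of the genes most like SLC7A11. The method was tested on simulated data. The alternatives were no block, smaller fits, other scalings, a filter on low values, single DMSO exposures and arrays left out.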

Additional observations from a re-analysis of the deposited data

Results flagged for a closer look

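In the 6 DMSO arrays at 24 h, SLC7A5 was 9.93 in replicate 2 of the second exposure, apart from the other 5 at 10.38 to 10.63. This is 1 of the low-spread arrays, and it was the only one of 16 sets of DMSO values (8 genes at 2 times) with such a gap, where chance gives about 1 in 20.

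By limma with an adjusted p under 0.05, the change against DMSO differed between 48 h and 24 h in 4 cases. Those of SLC7A11 are description only, since the list was built around it. With piperonyl butoxide the difference was -3.30 for SLC7A11, -1.11 for SLC7A5 and -0.93 for SLC7A1, and with nifedipine it was -2.60 for SLC7A11. The DMSO level of SLC7A11 was 1.75 higher at 48 h than at 24 h on the log2 scale. That rise is subtracted in both SLC7A11 differences, so they are larger than the falls in level in the treated cultures. Mean levels went from 9.75 to 8.19 with piperonyl butoxide and from 10.31 to 9.46 with nifedipine.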

How the results depend on the processing

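Of the values and counts recomputed under 9 other settings, none turned round a called direction. Calls of SLC7A11 made or lost below are description only and no test of it, since the list was built around that gene. Without the replicate block, 13 changes rose at 24 h, against 19 with it, and 2 of the differences between times fell, against 4. Methapyrilene at 24 h then had 2 calls and tolbutamide 1, against 4 each, and the SLC7A11 difference between times with nifedipine (-2.60) was not called. When a fit held just 1 compound and DMSO, 1 of the differences between times fell, and the SLC7A11 difference with piperonyl butoxide (-3.30) was not called. Without the 4 low-spread arrays, SLC7A11 was called at 48 h with 2-nitrofluorene (0.96), clonidine (1.06) and nifedipine (0.64), as was its tolbutamide difference between times (-1.53), and 17 changes rose at 48 h, against 11. Cyclic loess gave 18 rises at 48 h. It put SLC7A11 at 0.94 with 2-nitrofluorene and 1.09 with clonidine at 48 h, and its tolbutamide difference at -1.57. With the first DMSO exposure alone, 7 changes rose at 48 h, 14 at 24 h, and 1 difference between times fell, with the SLC7A11 nifedipine difference at -2.41 and not called. With the second alone, 13 rose at 24 h. The share of all genes called is not given for these settings, so the counts describe the 8 genes only. With piperonyl butoxide at 48 h, cyclic loess put the median of all genes at 0.01, SLC7A5 at -0.45 and SLC38A2 at -0.65, both still called. Leaving out 1 array at a time gave 16 to 22 rises at 24 h, 8 to 15 at 48 h and 3 to 6 falls among the differences, and put SLC7A11 with piperonyl butoxide at 48 h between -1.12 (without replicate 3) and 0.18 (without replicate 1).

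The 3 replicates per compound limit all calls, and the low-spread arrays limit those for piperonyl butoxide most. The 24 h and 48 h changes are set against different DMSO arrays. Genes outside the list could not be named.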
